A study of Mus musculus with 6 samples.

Results

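The 10 genes described here mark organised lymphoid tissue and its venules, and were measured by RNA-seq in the lungs of Zpbp2 knockout (KO) and wild-type (WT) mice. The set holds 10 of the 47069 genes in the count table and takes 11 of its rows, because Ccl21a has 2 rows. The genes were found by their symbols, and the set was chosen by a rule written when the KO and WT values of several of them were known. Their levels and fold changes are therefore given as a description, with no test. The lungs were taken 10 h after lights on (ZT10), from the KO mice KO4, KO5 and KO6 and from the WT mice WT4, WT5 and WT6, that is 3 per group. The WT mice were C57BL/6J. The KO mice carried in every cell a deletion of the first exons of Zpbp2 from the B6.129S7-Zpbp2tmZuk/Mmjax strain, kept on the C57BL/6J background in the colony that bred the controls. Neither the age in weeks nor the sex of each mouse is given in the labels, and the groups share no treatment. Each library came from 1 mouse, so the spread between libraries holds both animal and technical variation.

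In lymph nodes, and in the bronchus-associated lymphoid tissue that can form along the airways, stromal cells secrete CXCL13, CCL19 and CCL21. B cells follow CXCL13 through the receptor CXCR5, and T cells and mature dendritic cells follow CCL19 and CCL21 through CCR7. Lymphotoxins made by lymphocytes, encoded by Lta and Ltb, signal to the stroma through the lymphotoxin beta receptor and keep these chemokines on. Blood lymphocytes enter through high endothelial venules, whose surface glycoproteins, among them GLYCAM1 and in mucosal tissue MADCAM1, are ligands for homing receptors of lymphocytes, MADCAM1 for the alpha4beta7 integrin. CHST4 is a sulfotransferase that adds sulfate to the sugar chains of these glycoproteins.

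Of the 10 genes, Cxcl13, Cxcr5, Lta, Ltb and Glycam1 were higher in every KO mouse than in any WT mouse, and for all but Glycam1 the mouse KO5 was at least 2.45 times the mean of KO4 and KO6. Ccr7 stood out in KO5 while KO4 lay within the WT range, and Chst4 lay below the WT mean in all KO mice. Madcam1 was close to absent, and Ccl19 and Ccl21a had no counts in any library.

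The lymphotoxin arm of this system acts on its target promoters through NF-kappaB dimers, so the promoters of the members were searched for a pair of kappaB-type motifs. Promoter sequences of 8 of the 10 genes were taken from RefSeq (build GRCm38.p6), 250 bases before each start. Cxcr5 and Ccr7 were not among them. The letters GGGAGATTT were found 114 to 106 bases before the start of Cxcl13, on the strand of the gene. The letters GGGACTTTC were found on the opposite strand, as GAAAGTCCC, 69 to 61 bases before the start of Madcam1 and 86 to 78 bases before that of Ltb. Each match is printed in capitals with 25 bases on either side, for Cxcl13 at chr5:95956800-95956858, for Madcam1 at chr10:79664465-79664523 and for Ltb at chr17:35194396-35194454, all on the plus strand of the genome. These distances are counted from the RefSeq starts. GENCODE places the start of Ltb farther upstream, at 35194439, so that the match lies 18 to 10 bases before it and the end of the Ltb window is inside the gene as GENCODE draws it.
Cxcl13: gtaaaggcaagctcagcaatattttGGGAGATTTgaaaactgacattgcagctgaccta
Madcam1: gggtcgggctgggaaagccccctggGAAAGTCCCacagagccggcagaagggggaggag
Ltb: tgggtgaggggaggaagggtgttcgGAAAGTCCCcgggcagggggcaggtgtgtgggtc
Of 32851 promoters of the same length, 93 (0.28%) held GGGAGATTT and 95 (0.29%) held GGGACTTTC on either strand. The motifs were picked with these sequences in view, and a match is a description of the letters, not a measured binding site.

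Zpbp2 itself was scarce in the WT lungs, with 1, 2 and 2 counts, and had 0 counts in each KO lung, at or under the floor of 3 counts, so it checks the labels only weakly. The gene counts of a library summed to 19981428 in the shallowest and to 46796908 in KO5, the deepest. Levels are given as CPM, a gene's counts in a library brought to 1000000 counts by its TMM-adjusted depth, and 3 counts equal 0.0629 to 0.148 CPM, a floor that covers counting error only. Of the 17037 genes kept by the filter on low counts, edgeR's quasi-likelihood test called 634 higher in KO mice (3.72%) and 455 lower (2.67%) at an adjusted p of at most 0.05. Every KO mouse was above every WT mouse for 2904 genes (17.0%). Along the first principal component, which held 43.5% of the variance, the KO mice lay on one side of the WT mice, with KO5 farthest out. All 6 lungs had high Xist, from 714 to 993 CPM, and 4 Y-linked genes together had 24 counts in KO5 and at most 1 elsewhere. The lung identity of the samples was plain in each library, with surfactant gene Sftpc between 9318 and 13750 CPM. Its lowest value was that of KO5. The 6 listed lung genes summed to 34400 CPM in KO5 and to 41400 to 53400 CPM in the other mice. Whether a difference reflects more cells of a type or more RNA per cell cannot be told apart in whole lung.

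**Figure D1:**
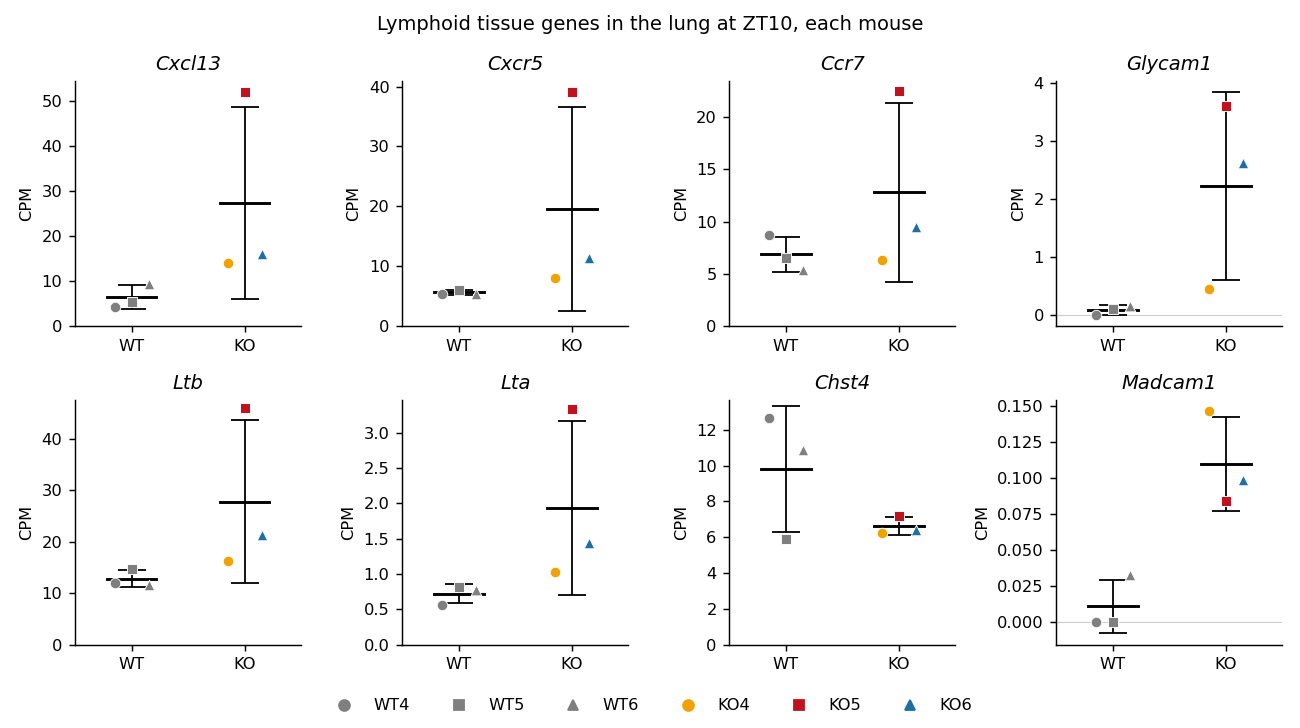
Levels of the 8 detected genes in each mouse, in CPM on a linear axis; points are mice, the thick line is the group mean and the bars are SD (n = 3 mice). KO5 is the highest point for Cxcl13, Cxcr5, Ccr7, Glycam1, Ltb and Lta, from 3.33 CPM for Lta to 52.0 CPM for Cxcl13, while the highest Chst4 value, 12.7 CPM, belongs to WT4.

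Of the 10 genes, 7 passed the filter, and the fold changes below are of those 7. Passing it needed enough counts in only part of the libraries, so that for Glycam1 the KO mice alone carried the gene through. The groups did not overlap for 5 of the 7, all with KO above WT, and nothing is read from that count because the genes were chosen on this contrast.

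Cxcl13 (ENSMUSG00000023078), the B cell attractant, lies at chr5:95956951-95961068 on the plus strand of GRCm38. It measured 4.30, 5.41 and 9.44 CPM in WT4, WT5 and WT6, and 14.0, 52.0 and 16.0 CPM in KO4, KO5 and KO6. All 3 KO mice stood above the highest WT mouse, and KO5 reached 3.46 times the mean of KO4 and KO6. The group means were 6.38 ± 2.70 CPM in WT and 27.4 ± 21.4 CPM in KO mice (SD, n = 3 each), a log2 fold change of 2.10 with a standard error (SE) of 0.56. Without KO5 it was 1.22. That was the highest value without KO5 among the 6 members that could be fitted that way, and KO4 and KO6 were 2.20 and 2.51 times the WT mean.

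Cxcr5 (ENSMUSG00000047880), the CXCL13 receptor carried by B cells and follicular helper T cells, lies at chr9:44511787-44561877 on the minus strand. Its levels were 5.43, 6.08 and 5.36 CPM in the WT mice and 8.06, 39.1 and 11.3 CPM in KO4, KO5 and KO6. The WT mice lay close together, with an SD of 0.396 CPM, and all KO mice were above them. KO5 was 4.04 times the mean of the other KO mice, the widest such gap among the 7 genes. The log2 fold change was 1.82 (SE 0.57) and fell to 0.78 without KO5. At its end Cxcr5 shares 110 exonic bases with Bcl9l on the opposite strand, and reads there cannot be assigned if the counting ignored strand.

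Ccr7 (ENSMUSG00000037944), the receptor for CCL19 and CCL21 on naive T cells and mature dendritic cells, lies at chr11:99144196-99155077 on the minus strand. It was at 8.69, 6.51 and 5.40 CPM in WT4, WT5 and WT6. KO4 had 6.35 CPM, KO5 had 22.6 CPM and KO6 had 9.47 CPM. Here the groups overlapped, because KO4 lay within the WT range. The log2 fold change of 0.92 (SE 0.45) became 0.20 when KO5 was left out, so the difference between the group means came mostly from 1 mouse.

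The CCR7 ligand genes among the members had no assigned counts. Ccl19 (ENSMUSG00000071005, chr4:42754525-42756577, minus strand) and Ccl21a (ENSMUSG00000094686, chr4:42772860-42773993, minus strand) had 0 counts in all 6 libraries. The floor of 0.148 CPM in the shallowest is a limit only for reads that could be assigned to these genes, and not for their expression. The other row of Ccl21a (ENSMUSG00000095320), which the annotation places on an unplaced scaffold, was also at 0. Both genes belong to a cluster with near-identical copies. Of the 302 stretches of 50 bases along the Ccl19 coding sequence, 237 (78.5%) occurred word for word in another annotated gene, and for Ccl21a it was 253 of 353 (71.7%). None of the other 8 members shared any such stretch.

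Ccl21b and Ccl21a show how close the copies are. Over 402 coding bases the annotated Ccl21b differs from Ccl21a by T84A and C194T, counted from the first base of the start codon, with the base of Ccl21a first. Coding positions 74 to 204 are printed with these 2 positions in capitals, since no read falling between them can be assigned to 1 copy.
Ccl21a: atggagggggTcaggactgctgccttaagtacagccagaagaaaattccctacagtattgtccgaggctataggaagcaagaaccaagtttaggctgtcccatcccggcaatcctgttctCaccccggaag
Ccl21b: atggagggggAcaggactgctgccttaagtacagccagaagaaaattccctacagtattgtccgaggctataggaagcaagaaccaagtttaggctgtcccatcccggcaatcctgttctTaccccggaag
The annotated genes Gm13304, Gm21541 and Gm10591 carry the same T84A and C194T changes. Ccl21b had 1, 1 and 0 counts in the WT mice and 0 in every KO mouse. The pseudogene Ccl19-ps1, which shares sequence with Ccl19, had 2 counts in each WT mouse and 5, 17 and 9 in KO4, KO5 and KO6, a ratio of 4.48 for equal depth (95% counting interval 1.84 to 13.1). Gm12407, another copy of Ccl19, had 10, 4 and 9 counts in WT mice and 8, 27 and 12 in KO mice (ratio 1.77, counting interval 1.05 to 3.06). For Gm12407 the groups overlapped, with 0.391 CPM in KO4 and 0.402 CPM in WT4. Both intervals ignore variation between mice. How reads matching several places were counted is not given in the sources used here, and its part in the zeros of Ccl19 and Ccl21a was not tested. No fold change is given for either chemokine.

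The lymphotoxin genes lie side by side in the major histocompatibility region of chromosome 17. Ltb (ENSMUSG00000024399, chr17:35194439-35196320, plus strand) encodes the membrane-bound beta chain. It measured 12.0, 14.7 and 11.6 CPM in WT mice and 16.1, 45.8 and 21.3 CPM in KO4, KO5 and KO6. The lowest KO mouse, KO4, was only slightly above the highest WT mouse, WT5, while KO5 stood well apart. The log2 fold change was 1.14 (SE 0.37), or 0.55 without KO5.

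Lta (ENSMUSG00000024402, chr17:35203165-35205351, minus strand) encodes the alpha chain, which forms a soluble homotrimer or joins the beta chain at the membrane. Its levels were low, at 0.563, 0.814 and 0.776 CPM in WT mice and 1.03, 3.33 and 1.43 CPM in KO mice. These rest on 14 to 24 counts per WT library and 21 to 159 per KO library. The order of the KO mice was that of Ltb, with KO5 highest, KO6 next and KO4 just above the WT range. The log2 fold change was 1.48 (SE 0.46), and 0.77 without KO5.

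Glycam1 (ENSMUSG00000022491, chr15:103562759-103565081, minus strand), a mucin-like glycoprotein of high endothelial venules, showed the widest ratio of the set, on few counts. WT4, WT5 and WT6 had 0, 2 and 5 counts and KO4, KO5 and KO6 had 9, 172 and 53. In CPM the WT mice were at 0, 0.0958 and 0.162 and the KO mice at 0.440, 3.61 and 2.61. KO5 and KO6 stood well above the rest, and KO4 was above every WT mouse by a few counts. Summed over the mice, 7 counts in WT and 234 in KO gave a ratio of 29.0 for equal depth, with a 95% counting interval of 13.8 to 72.9 that ignores variation between mice. The fitted log2 fold change was 4.60 (SE 0.96). Without KO5 the gene no longer passed the filter, although KO6 alone was 30.5 times the WT mean. Glycam1 is also a milk gene, and 6 other milk genes were looked at. Csn1s1, Csn1s2a and Wap had no counts in any library, and Csn3 had 3 counts in WT6, 1 in KO6 and none elsewhere. Lalba had 0 counts in each WT mouse and 2, 3 and 1 in KO4, KO5 and KO6. Csn2 was at 0, 0.766 and 0.226 CPM in WT4, WT5 and WT6 and at 0.830, 0.105 and 0.937 CPM in KO4, KO5 and KO6, so the groups overlapped. The part of milk gene expression in the level of Glycam1 was not tested.

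Madcam1 (ENSMUSG00000020310, chr10:79664559-79668537, plus strand), the alpha4beta7 integrin ligand of mucosal venules, had 0, 0 and 1 counts in WT mice and 3, 4 and 2 in KO mice. It did not pass the filter. The ratio for equal depth was 7.80 with a 95% counting interval of 1.08 to 342, so little can be said beyond its scarcity. KO5 was not the highest mouse in CPM here, with 0.0838 CPM against 0.147 CPM in KO4.

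Chst4 (ENSMUSG00000035930, chr8:110029153-110039740, minus strand) had a fold change of opposite sign. It was at 12.7, 5.89 and 10.9 CPM in WT4, WT5 and WT6 and at 6.25, 7.21 and 6.41 CPM in KO4, KO5 and KO6. The KO mice were close to each other and lay just above the lowest WT mouse, so the groups overlapped. The log2 fold change was -0.57 (SE 0.26), and KO5 was only 1.14 times the mean of the other KO mice. Chst4 was thus the only one of the 7 genes with a negative fold change, and it did not share the pattern of Glycam1 over these mice.

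Levels were also put per kilobase of exon (RPKM), which allows genes to be ranked. In WT lungs Ltb led with 8.41 ± 1.10 RPKM (SD, n = 3), followed by Cxcl13 at 5.55 ± 2.35, Chst4 at 4.30 ± 1.54 and Ccr7 at 3.47 ± 0.846. Neighbours in this upper part differed by less than the sum of their SDs. Cxcr5 followed at 1.69 ± 0.119 RPKM, Lta at 0.519 ± 0.0977, Glycam1 at 0.0402 ± 0.0381 and Madcam1 at 0.0075 ± 0.0130. Of these lower steps, that from Glycam1 to Madcam1 was within the sum of the SDs and the others were not. In KO lungs the mean of Cxcl13, 23.8 ± 18.6 RPKM, was above that of Ltb at 18.3 ± 10.5, though the SDs of both cover the gap.

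**Figure D2:**
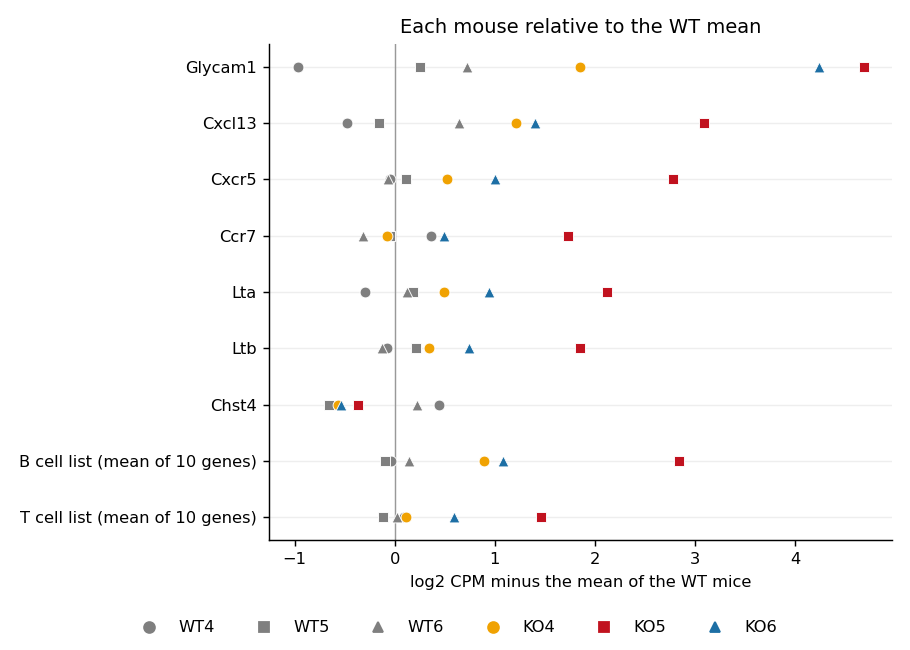
Log2 CPM of each mouse minus the mean of the WT mice, for the 7 genes that passed the filter and for the mean of 10 B cell genes and 10 T cell genes; each point is 1 mouse. KO5 lies at 2.78 for Cxcr5 and 2.84 for the B cell genes, KO4 and KO6 lie between them and the WT mice, and the Chst4 points of the KO mice lie below 0.

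The plot of mice relative to the WT mean shows that the excess of KO5 was spread over 6 of the 7 genes (85.7%), in each of which it was the highest mouse. It was the highest of the 6 mice for 25.6% of all tested genes. The median log2 fold change over the 7 genes was 1.48 with all mice and 0.66 over the 6 that could be fitted without KO5. The latter leaves out Glycam1, at 4.60 with all mice, so these medians differ in genes as well as in mice. Over all genes tested the median with all mice was 0.00295. The members were chosen with this contrast known, so nothing is read from its gap to the members. Over the 6 mice, the correlation of each gene with the mean of the other 6 was 0.985 for Lta, 0.969 for Cxcr5, 0.963 for Ltb, 0.951 for Cxcl13, 0.859 for Glycam1 and 0.831 for Ccr7. Chst4 gave -0.442. These values describe the same 6 libraries. Without KO5 they were 0.961 for Glycam1, 0.946 for Cxcr5, 0.945 for Lta, 0.872 for Ltb, 0.842 for Cxcl13, 0.318 for Ccr7 and -0.617 for Chst4.

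Markers of lymphocytes moved with the members. All 10 B cell genes, among them the surface molecule Ms4a1 and the transcription factor Pax5, separated the genotypes, the lowest KO mouse being above the highest WT mouse. The same held for 17.0% of all tested genes. Their summed level was 168, 161 and 185 CPM in WT4, WT5 and WT6, and 316, 1250 and 360 CPM in KO4, KO5 and KO6. Their median log2 fold change was 1.89, or 0.996 without KO5. By edgeR's quasi-likelihood test 0 of the 10 passed an adjusted p of 0.05, for example Ms4a1 with 2.06 (SE 0.58, adjusted p = 0.0789). All 10 had an unadjusted p under 0.05, as did 25.5% of all tested genes. DESeq2 called all 10, against 11.2% of all tested genes. With 1 mouse left out, the quasi-likelihood test called all 10 without KO5 and 9 without KO4. Over all genes those fits called 933 of 17033 and 1278 of 17504. The test called 0 of the 10 without WT4, WT5, WT6 or KO6.

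T cell genes gave smaller differences. Their summed level was 71.8, 60.7 and 68.3 CPM in the WT mice and 76.9, 183 and 99.1 CPM in KO4, KO5 and KO6. Every KO mouse was above every WT mouse for 8 of the 10 (17.0% over all tested genes), while for Cd8a and Cd8b1 the groups overlapped. The median log2 fold change was 0.88 and 0.47 without KO5. None of the 10 passed the quasi-likelihood test. At an unadjusted p under 0.05 were 8, and DESeq2 called 7, beside 25.5% and 11.2% of all tested genes. Without KO4 the quasi-likelihood test called 6, and 1278 of 17504 over all genes. Without WT4, WT5, WT6, KO5 or KO6 it called 0 of the 10. Cd3e, a chain of the T cell receptor complex, gave 0.85 (SE 0.29, adjusted p = 0.122).

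**Figure D3:**
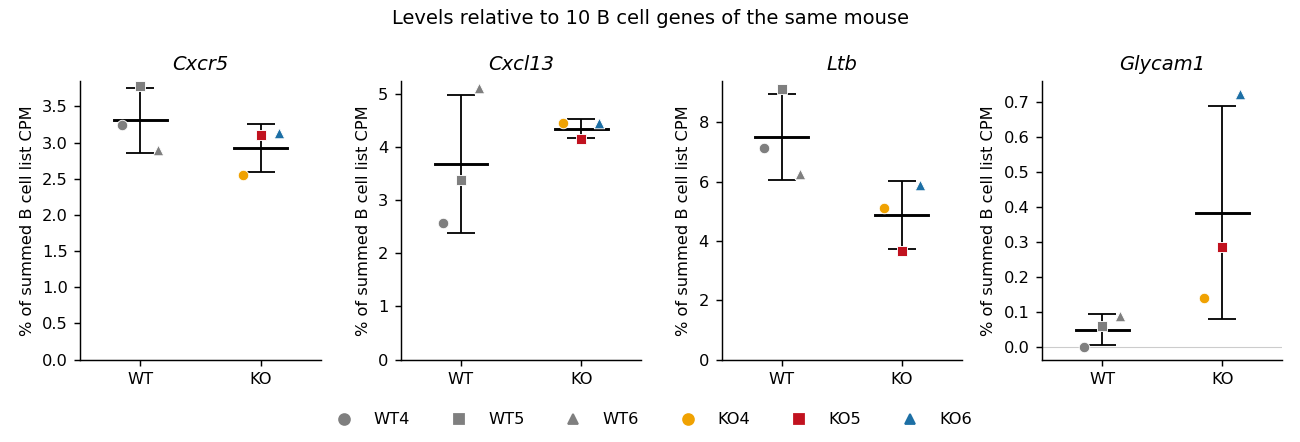
Level of Cxcr5, Cxcl13, Ltb and Glycam1 as a percentage of the summed CPM of 10 B cell genes in the same mouse; points are mice, the thick line is the group mean and the bars are SD (n = 3 mice). For Cxcr5 the values lie between 2.55% and 3.79% in all 6 mice, while Glycam1 runs from 0 in WT4 to 0.725% in KO6.

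Put against these lists within each mouse, the members separated. Cxcr5 amounted to 3.24%, 3.79% and 2.90% of the summed B cell level in WT mice and to 2.55%, 3.11% and 3.13% in KO mice. The means of 3.31 ± 0.447% and 2.93 ± 0.332% (SD, n = 3) differed by less than their spread, so per unit of B cell transcript Cxcr5 in KO5 was like that in the other lungs.

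Cxcl13, which stromal cells and not B cells make, amounted to 2.57%, 3.37% and 5.10% of the B cell sum in WT4, WT5 and WT6, and to 4.44%, 4.14% and 4.45% in KO4, KO5 and KO6. The KO values fell inside the WT range. Against the T cell sum Cxcl13 stood at 5.99%, 8.91% and 13.8% in WT and at 18.2%, 28.4% and 16.2% in KO mice, where every KO mouse was above every WT mouse.

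Against the B cell sum Ltb was at 7.15%, 9.12% and 6.27% in WT mice and 5.10%, 3.65% and 5.90% in KO mice, lower in every KO mouse. Against the T cell sum, Ltb overlapped between the groups with means of 19.3 ± 4.21% in WT and 22.5 ± 2.20% in KO mice. Ccr7 overlapped against the T cell sum too, at 7.90 to 12.1% in WT and 8.25 to 12.3% in KO mice, while against the B cell sum its 1.80 to 2.63% in KO mice lay below the 2.92 to 5.18% of WT mice.

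Glycam1 did not follow either list. Relative to the B cell sum it was 0%, 0.0596% and 0.0873% in WT4, WT5 and WT6, and 0.139%, 0.287% and 0.725% in KO4, KO5 and KO6. The highest value belonged to KO6 and not to KO5, and all KO mice stayed above the WT mice. These ratios show unequal change of gene and list and do not say which of them changed. Whether lymphocyte content accounts for the level of any member was not tested, and lymphoid tissue within the lung and a lymph node taken with it cannot be told apart by these genes.

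Other cell markers were at hand for the structures that the members are known from. Of 6 genes of follicular dendritic cells, the stromal network of B cell follicles, Cr2 and Fcer2a, which B cells also carry, were above WT in every KO mouse, Cr2 with a log2 fold change of 1.77 (SE 0.55, adjusted p = 0.104). Mfge8, Prnp and C4b overlapped and Clu was lower in each KO mouse. None of the 6 passed the quasi-likelihood test, with 3 at an unadjusted p under 0.05 (25.5% over all tested genes) and none called by DESeq2. Among germinal centre genes 5 were tested, including the transcription factor Bcl6, and the groups overlapped for all 5. By both tests 0 were called, and 0 had an unadjusted p under 0.05.

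Plasma cell genes gave 0 calls of 6 by either test, with 3 at an unadjusted p under 0.05 (25.5% over all tested genes). Those 3, Jchain, Mzb1 and Tnfrsf17, were above WT in every KO mouse, as were 17.0% of all tested genes. KO5 was the highest mouse for none of the 6. Their summed level was 556 to 782 CPM in WT and 696 to 1180 CPM in KO mice. Of 8 genes listed for dendritic cells, which carry CCR7 once mature, 4 rose and 1 fell by the quasi-likelihood test. Over all tested genes the shares were 3.72% and 2.67%. The chemokines Ccl17 (-0.34) and Ccl22 (0.21) and the channel subunit Cacnb3 (0.04) did not pass. Fscn1, an actin bundler, rose by 0.52 on the log2 scale (SE 0.07, adjusted p = 0.0177), and Cd83 by 0.98 (SE 0.20, adjusted p = 0.0370). Itgax rose by 0.60 (adjusted p = 0.0452) and Flt3 by 0.76 (adjusted p = 0.0461). Zbtb46 fell by 0.35 (SE 0.05, adjusted p = 0.0174). In whole lung these transcripts cannot be assigned to mature dendritic cells, and which cells carried them was not tested. The summed level was 186 to 201 CPM in WT and 228 to 245 CPM in KO mice, without an excess in KO5. Without KO5 only Fscn1 and Zbtb46 passed, and over the 6 fits that each leave out 1 mouse these were called in 2 and Cd83, Itgax and Flt3 in 1.

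Markers of tissue that could be taken with a lung differed in level. The thymic genes Rag1, Ptcra, Foxn1 and Psmb11 stayed at or under 0.0804 CPM and Rag2 was at 0 in all libraries. Dntt, another thymic gene, was at most 0.201 CPM in WT and 0.314 CPM in KO mice. Cd1d1, the only listed thymic gene that passed the filter, was at 11.7 to 15.1 CPM in WT and 15.3 to 21.4 CPM in KO mice and gave 0.41 (SE 0.15, adjusted p = 0.154). Adipocyte genes were highest in KO5 for 4 of the 4 tested, beside 25.6% of all tested genes. Their summed level was 77.0 CPM in KO5, 33.0 and 43.7 CPM in KO4 and KO6 and 33.2 to 57.4 CPM in WT mice. Lep stood apart, at 15.7 CPM in KO5 and at most 4.88 CPM elsewhere. KO5 and WT5 were closer for Plin1 (17.4 and 17.3 CPM), Cidec (26.4 and 23.2 CPM) and Adipoq (17.5 and 13.9 CPM). The part of adipocyte genes in the level of any member in KO5 was not tested. Lymphatic endothelial genes summed to 550 to 674 CPM in WT and 448 to 608 CPM in KO mice. They gave 0 quasi-likelihood calls of 6, with 1 at an unadjusted p under 0.05 (25.5% over all tested genes). That gene, Lyve1, was lower in each KO mouse, with a log2 fold change of -0.78 (SE 0.21, quasi-likelihood adjusted p = 0.0698). DESeq2 called it, as it did 11.2% of all tested genes. The mean of Lyve1 was 348 CPM in WT and 203 CPM in KO mice. The other 5 of the 6 genes had a log2 fold change above 0, as did 8622 of the 17037 genes tested. For those 5 the groups overlapped, and the median of the list was 0.0856.

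**Figure D4:**
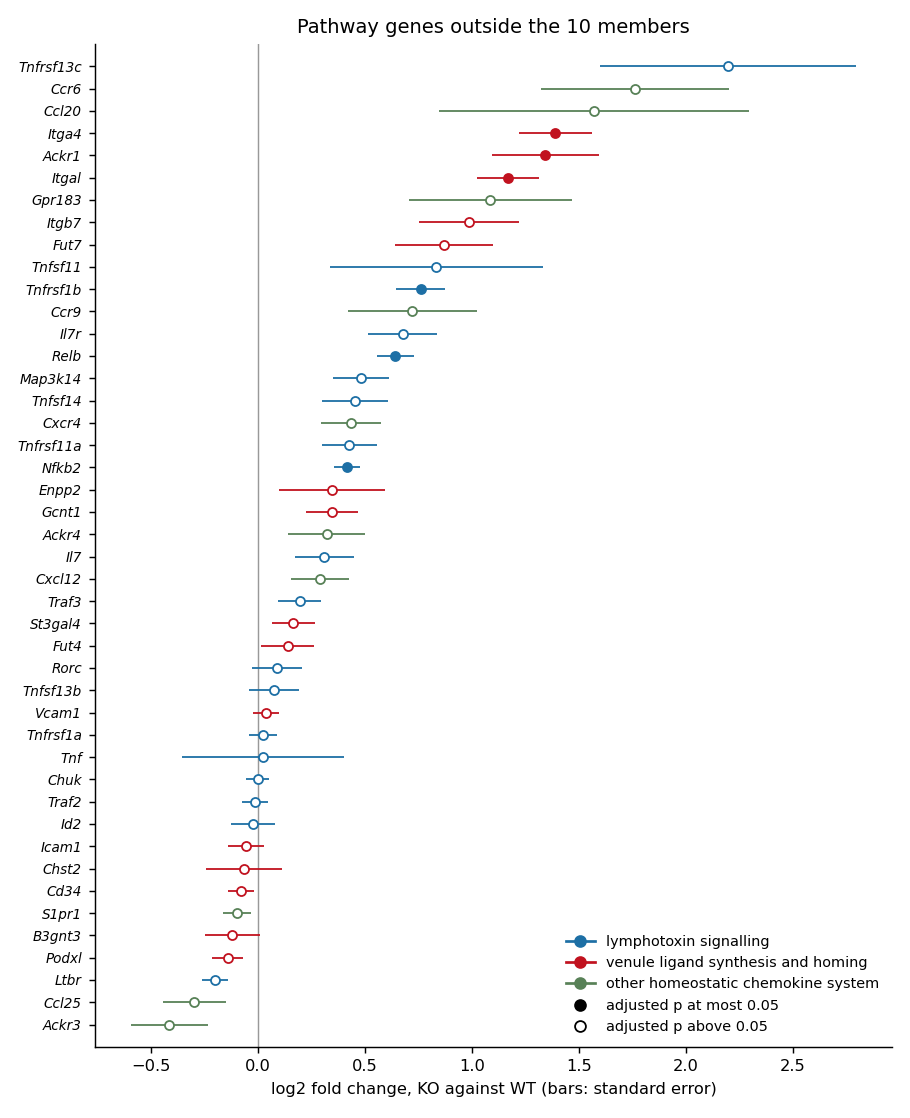
Log2 fold change, KO against WT, with its standard error for tested genes of 3 pathway lists that exclude the 10 members; filled circles have an adjusted p of at most 0.05 by edgeR's quasi-likelihood test. The 6 filled circles all lie above 0, from 0.41 for Nfkb2 to 1.39 for Itga4.

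The rest of the pathway was read from lists of lymphotoxin signalling, of venule ligand synthesis and lymphocyte homing, and of the other homeostatic chemokines with their receptors. Of 48 listed genes 45 were tested, and 6 rose and 0 fell by the quasi-likelihood test. That test called 3.72% of all tested genes higher and 2.67% lower. At an unadjusted p under 0.05 were 20 genes, 1 of them lower in KO mice, and DESeq2 called 12, none of them lower. Over all tested genes the shares were 25.5% and 11.2%. The median log2 fold change was 0.32 with all mice and 0.29 without KO5. The number called was 8 without KO5, 16 without KO4, 3 without WT4, 3 without KO6 and 0 without WT5 or WT6. Of the 16 called without KO4, 14 were higher and 2 lower in KO mice. With WT5 left out the fit called only 1 gene of all tested.

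Of 19 lymphotoxin signalling genes, 3 rose, beside 3.72% of all tested genes. Relb and Nfkb2, the NF-kappaB subunits of the noncanonical pathway below the lymphotoxin beta receptor, were tight within each group. Relb was at 19.5, 18.5 and 19.2 CPM in WT mice and 27.4, 33.2 and 28.4 CPM in KO4, KO5 and KO6. It rose by 0.64 (SE 0.09, adjusted p = 0.0175) on the log2 scale, and by 0.55 without KO5, where it was still called.

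Nfkb2 was at 44.7, 44.2 and 42.7 CPM in WT and 54.4, 61.5 and 59.5 CPM in KO mice, and rose by 0.41 (SE 0.06, adjusted p = 0.0189). Tnfrsf1b, a receptor for tumour necrosis factor and for the LTA homotrimer, rose by 0.76 (SE 0.12, adjusted p = 0.0208), with KO6 and not KO5 the highest mouse. The receptor gene Ltbr did not pass, at -0.20 (SE 0.06, adjusted p = 0.0939), nor did Map3k14, the kinase that activates the noncanonical pathway, at 0.48 (SE 0.13, adjusted p = 0.0743). Il7r, a receptor of lymphocytes and of the inducer cells of lymphoid tissue, gave 0.68 (SE 0.16, adjusted p = 0.0549), and Il7 gave 0.31 (SE 0.14, adjusted p = 0.216). Leaving out 1 mouse in turn, Relb and Nfkb2 were each called in 2 of the 6 fits and Tnfrsf1b in 4.

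Among the venule and homing genes 16 of 17 were tested and 3 rose, beside the same 3.72% over all tested genes. Itga4, the alpha chain of the integrin that binds MADCAM1, was at 55.0, 49.0 and 52.3 CPM in WT mice and 100.8, 166.9 and 141.4 CPM in KO4, KO5 and KO6. It rose by 1.39 (SE 0.17, adjusted p = 0.0132). Itgal, the alpha chain of the LFA-1 integrin, rose by 1.17 (SE 0.15, adjusted p = 0.0137) and was highest in KO6. Both were called in 4 of the 6 fits that leave out a mouse. Myeloid cells carry these integrins too.

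Ackr1, an atypical chemokine receptor of venular endothelium and red cells, was at 0.442, 0.431 and 0.485 CPM in WT mice and 0.879, 1.32 and 1.23 CPM in KO mice. It rose by 1.34 (SE 0.25, adjusted p = 0.0303), and was called in 1 of those 6 fits. Of the enzymes that build the sugar chains of venule glycoproteins beside Chst4, Chst2 gave -0.07 (SE 0.18, adjusted p = 0.855), Gcnt1 0.35 (SE 0.12, adjusted p = 0.133) and Fut7 0.87 (SE 0.23, adjusted p = 0.0694). Fut7 is also used by leukocytes.

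Itgb7, the partner of Itga4, gave 0.99 (SE 0.23, adjusted p = 0.0530). Nkx2-3, a transcription factor needed for Madcam1 in mucosal vessels, had no counts in any library. Of the other homeostatic chemokine genes 10 of 12 were tested and none passed the quasi-likelihood test. Among these 4 had an unadjusted p under 0.05, and DESeq2 called 3, beside the same 25.5% and 11.2% over all genes.

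Outside the set, the 10 tested genes whose log2 levels ran most like the mean of the 7 members over the 6 mice had correlations from 0.995 to 0.999. They were Jakmip1, Shisa3, Il4i1, Arhgap11a, 4930426D05Rik, Rhoh, Ifi203, Cd28, Zc3h12d and Lax1, and Cd28 is also in the T cell list. Jakmip1, the most alike, was at 2.82, 2.87 and 3.30 CPM in WT mice and 3.86, 10.6 and 5.67 CPM in KO4, KO5 and KO6. Shisa3 went from 1.21 to 1.42 CPM in WT mice to 1.81, 6.81 and 3.11 CPM in KO mice. Over the 5 mice without KO5 the correlations of the 10 genes were 0.984 to 0.996. The genes were picked by these correlations out of all tested genes, so the values are a description.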

How the data were processed

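RNA was extracted from the lungs of 3 WT and 3 KO mice at ZT10 and sequenced as stranded mRNA libraries. Per the submitters' processing notes, the authors used Trimmomatic 0.36, STAR 2.5.3a, Picard 2.9.0 and HTSeq 0.6.0 with GRCm38, and they deposited whole counts per Ensembl gene without normalization, 1 column per mouse. The strand setting, the annotation release and the treatment of reads with several matches are not given in the sources used here.

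Groups follow the labels. Counts of KO and WT mice were compared over all genes with edgeR 4.0.16 in R 4.3.3 (quasi-likelihood test, TMM scaling, filterByExpr with a minimum count of 10 and a total of 15, Benjamini-Hochberg adjustment over 17037 genes, no covariates). The code was tested on simulated data. A gene was called at an adjusted p of at most 0.05. SE is the size of the log2 fold change over the square root of F. Counting intervals of ratios are exact binomial (95%) on counts summed over mice and ignore variation between mice. Log2 CPM used a prior count of 2. Positions, exon lengths and coding sequences came from GENCODE mouse release 21, promoters from RefSeq. The members and lists were chosen with earlier results of these data known, and members got no test. Named beside them are Zpbp2, up to 4 called genes per list, partners picked by role and the 10 genes most alike over the mice. Other genes in the text illustrate their list and were picked after their values were seen. A few listed genes count in their lists but are not reported here by name.

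Alternatives were DESeq2 size factors, leaving out the filter, a stricter filter of 10 counts in all libraries, DESeq2 1.42.0, the replicate number as a block, library sizes without immunoglobulin genes, and each mouse left out. Depth was 19981428 to 46796908 counts per mouse.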

Additional observations from a re-analysis of the deposited data

How the results depend on the processing

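Over 82 alternative fits of the member log2 fold changes, all kept their sign and moved by less than the larger of the SDs of the WT and the KO mice on the log2 scale, which for most members is the KO SD with KO5 in it. Leaving out mice gave 1.22 to 2.51 for Cxcl13, 0.78 to 2.18 for Cxcr5, 0.20 to 1.24 for Ccr7, 0.77 to 1.77 for Lta, 0.55 to 1.41 for Ltb, 4.05 to 5.55 for Glycam1 (5 fits) and -0.83 to -0.34 for Chst4. The number of genes called, 1089 with all mice, was 1913 with DESeq2 and, with single mice left out, 1 to 1278: 254 without WT4, 1 without WT5, 63 without WT6, 1278 without KO4, 933 without KO5 and 117 without KO6. Of the pathway genes, 6 were called in the reported fit, 10 with no low-count filter, 12 with DESeq2 and 0 to 16 with a mouse left out. Of the B cell genes, 0 were called, against 10 without the filter, 10 with DESeq2 and 0 to 10 with a mouse left out. For T cell genes 0 became 7 with DESeq2 and 0 to 6 with a mouse left out. Which property of each alternative moved the counts was not tested. DESeq2 size factors, the stricter filter and library sizes without immunoglobulin genes changed no count by over 1.5 times. Replicate numbers share only a number here: same-numbered mice had correlations of -0.032, -0.154 and -0.021 in their deviations, and with the number as a block 66 genes and 0 pathway genes were called, with no change for the B and T cell genes. At 3 mice a group, and at 3 counts or fewer for WT Madcam1, depth and sample number limit what can be read. For Ccl19 and Ccl21a, at 0 counts, the sequence shared with other genes limits the reading too, and its part was not tested.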
